A study of Mus musculus with 32 samples.

Results

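Genes of the extracellular matrix and of the proteases that cut it were followed in 4 tissues of Nox4 knockout mice. The group was defined by gene symbol: every collagen, laminin, thrombospondin, matrix metalloproteinase (MMP), tissue inhibitor of metalloproteinases (TIMP) and ADAMTS gene of the array's probe annotation, together with Fn1 and Postn. It held 62 genes on 100 probes, of 9030 named genes and 20794 probes on the array. By family these were 10 fibrillar collagens, 2 basement membrane collagens (Col4a1 and Col4a2), 12 other collagens, 7 laminin chains, 4 thrombospondins, Fn1 and Postn, 12 MMPs, 4 TIMPs, 8 ADAMTS proteases and 1 ADAMTS-like protein.

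The knockout animals were 4 Nox4 -/- males on a C57BL/6 background, aged 17 weeks, and each gave muscle, pancreas, kidney and brain. Each tissue sample was hybridised on 2 arrays with exchanged dyes against an RNA pool of wild-type males of the same strain and age, so that 32 arrays gave 8 per tissue. The pool is 1 control sample, and the spread between wild-type animals does not enter any test. Its size is uncertain, with 4 wild-type animals in the design text and 6 controls in the labelling protocol.

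Nox4 is an NADPH oxidase that releases hydrogen peroxide and is studied in connection with fibrosis. Collagens and laminins form the scaffold of connective tissue and of basement membranes, and thrombospondins, fibronectin and periostin link cells to it. MMPs and ADAMTS enzymes cleave these proteins, and TIMPs inhibit the MMPs. Cells bind the matrix through integrins, and TGF-beta signalling induces many of its genes.

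Each value is a log2 ratio (base inferred), probably of knockout over pool, as read from the design text and from the channel that holds each animal's RNA. A value of 1 is a doubling in knockout RNA, and a positive value means higher in knockout. Arrays carried 19815 to 20684 values and had medians from −0.07 to 0.05. Arrays of the same dye orientation correlated across probes at r of 0.03 to 0.48 within tissues. The dye-swapped arrays of the same animal correlated at r of −0.58 to 0.06. The called results are therefore also given with the sign of the Cy3 arrays turned. The array has no probe named Nox4, so the deletion could not be checked, and ratios hold no levels against which the tissue labels could be checked by markers. In whole tissue, fewer cells of a type and less RNA per cell cannot be told apart.

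Most matrix genes lay close to 0 in every tissue, and none passed the test against the pool. In muscle the 61 measured matrix genes had a median log2 ratio of −0.020, against −0.024 over all genes tested. For the 60 in pancreas it was 0.00047, against 0.00063 over all genes. The 62 in kidney had 0.0019, against 0.0026, and the 60 in brain −0.0048, against 0.0076 over all genes. Without regard to sign, the typical matrix gene moved by 0.094 in muscle (all genes 0.083), 0.061 in pancreas (all genes 0.079), 0.037 in kidney (all genes 0.047) and 0.062 in brain (all genes 0.060), each a median of absolute log2 ratios. At an adjusted p under 0.05 (limma with Benjamini-Hochberg adjustment over all genes of a tissue), 0 of 61 matrix genes were called in muscle, where 0% of 16610 genes were called. The count was 0 of 60 in pancreas (0% of 16297 genes), 0 of 62 in kidney (0.00595% of 16797 genes, which is 1 gene) and 0 of 60 in brain (0% of 16682 genes). At an unadjusted p under 0.05, limma called 5 matrix genes in muscle, against 7.83% of all genes. It called 1 in pancreas (3.42% of all genes), 7 in kidney (9.48%) and 6 in brain (4.5%). As shares of the matrix genes tested these are 8.2% for muscle, 1.67% for pancreas, 11.3% for kidney and 10% for brain.

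**Figure D1:**
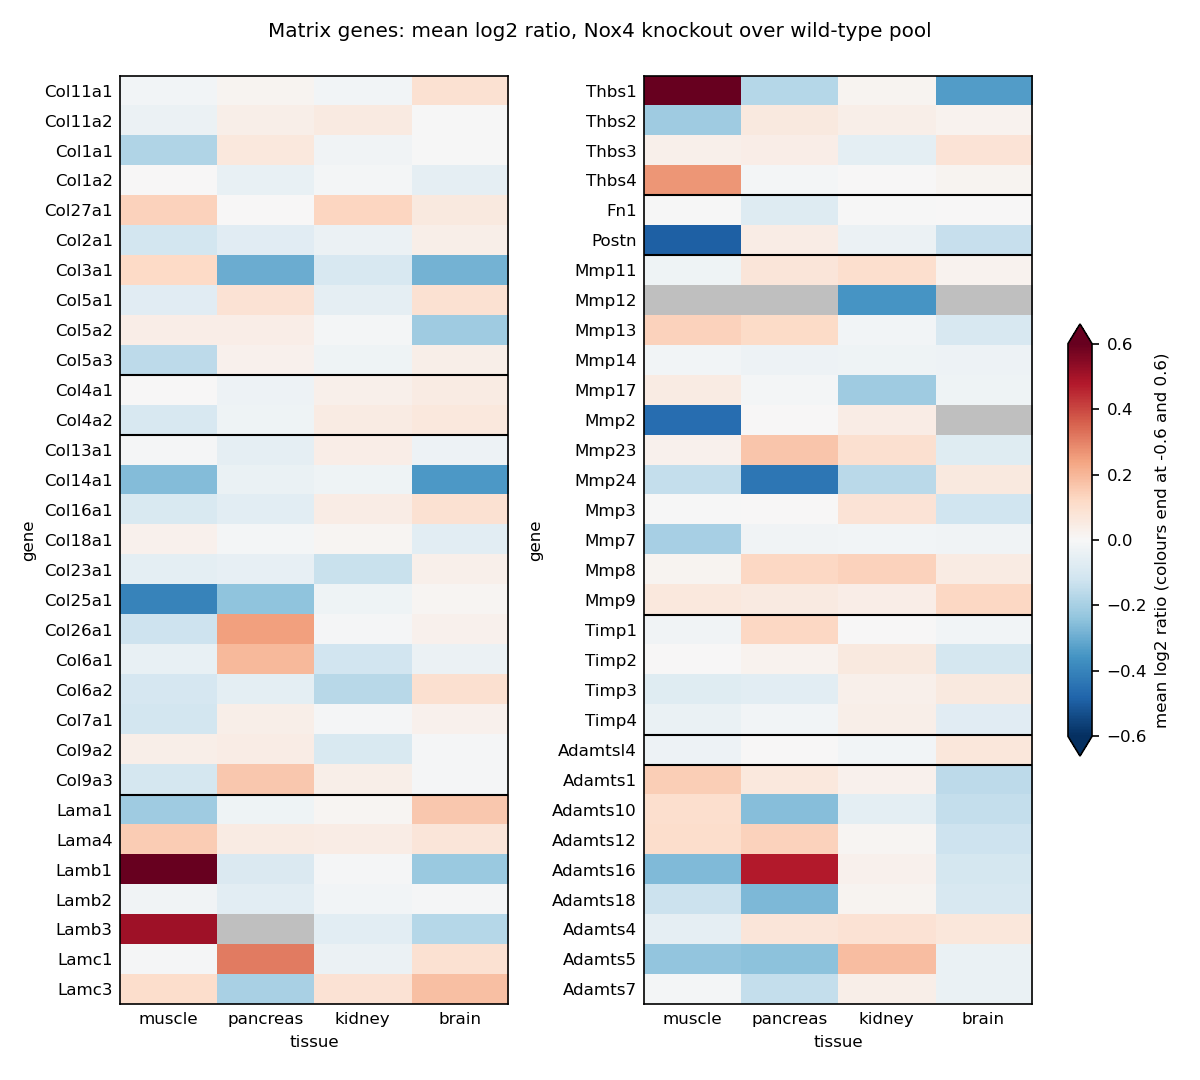
Mean log2 ratio of knockout over wild-type pool for each of the 62 matrix genes (rows, in 2 blocks, with lines between families) in muscle, pancreas, kidney and brain (columns). Red is higher in knockout, blue is lower, colours end at −0.6 and 0.6, and grey marks fewer than 3 animals with a value. Thbs1 (1.02) and Lamb1 (0.76) in muscle lie beyond the scale.

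Thbs1 and Lamb1 stood apart from the other members in muscle. Thbs1 encodes thrombospondin-1, a secreted glycoprotein that can activate latent TGF-beta and restrains angiogenesis. The 4 muscles had Thbs1 log2 ratios of 0.62, 1.65, 0.86 and 0.94, with a mean of 1.02 ± 0.44 (SD, n = 4), or 2.02-fold. In pancreas they had −0.38, −0.24, −0.27 and 0.21, in kidney −0.39, 0.20, 0.22 and 0.02, and in brain 0.12, −0.46, −0.44 and −0.56. Every muscle value lay above every value of the other tissues. Its mean was −0.17 ± 0.26 for the pancreases, 0.01 ± 0.28 for the kidneys and −0.34 ± 0.31 for the brains (SD, n = 4 each).

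Lamb1 encodes the beta chain that is common to several laminins of basement membranes. In muscle its log2 ratio was 0.48, 1.44, 0.29 and 0.80 in the 4 animals, with a mean of 0.76 ± 0.50 (SD, n = 4), or 1.69-fold. It was −0.43, 0.01, −0.04 and 0.12 in pancreas, −0.40, 0.09, 0.23 and 0.05 in kidney, and 0.08, −0.41, −0.19 and −0.38 in brain. The muscle values of Lamb1 again lay above all others, with the third muscle closest to the highest kidney. How many of all genes were separated in this way was not counted. The means outside muscle were −0.08 ± 0.24 in pancreas, −0.01 ± 0.27 in kidney and −0.22 ± 0.22 in brain (SD, n = 4 each).

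Both genes were above 0 on all 8 muscle arrays. With the knockout in Cy5, the Thbs1 arrays of muscle read 0.72, 1.67, 0.95 and 0.80, and with the knockout in Cy3 they read 0.53, 1.63, 0.77 and 1.07. For Lamb1 the muscle arrays read 0.64, 1.27, 0.24 and 1.10 with the knockout in Cy5, and 0.33, 1.62, 0.34 and 0.50 with the knockout in Cy3. The dye orientations thus gave means of the same sign, 1.04 and 0.999 for Thbs1 and 0.81 and 0.70 for Lamb1. Of the 57 matrix genes with 8 values in muscle, these 2 kept the same sign on all 8 arrays, against 2.12% of all genes. The count was 2 of 62 in kidney (1.45% of all genes), 0 of 57 in pancreas (0.228%) and 0 of 58 in brain (0.897%).

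**Figure D2:**
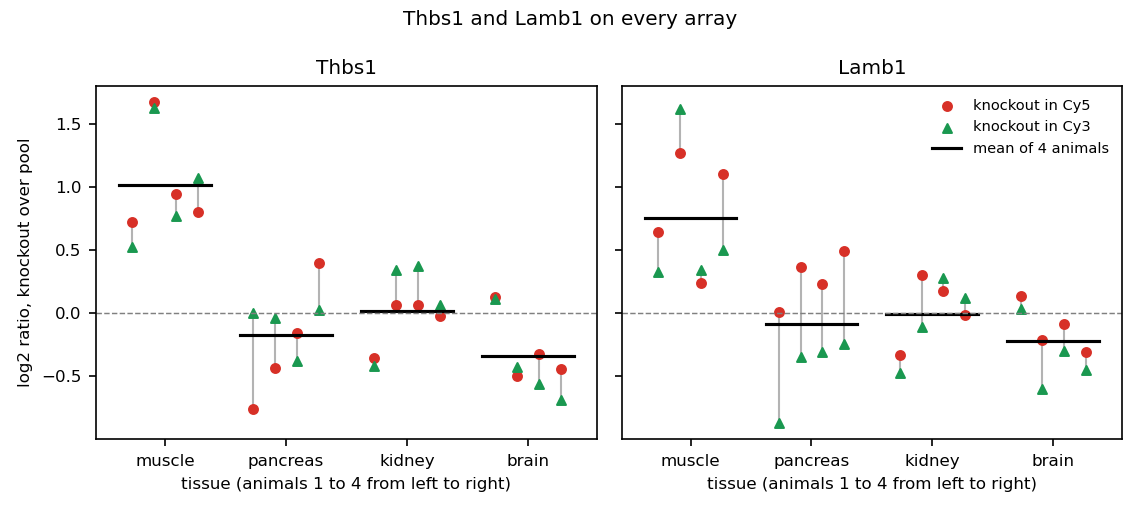
Log2 ratio of Thbs1 (left) and Lamb1 (right) on each array, by tissue, with animals 1 to 4 from left to right within a tissue. Circles have the knockout in Cy5, triangles in Cy3, grey lines join the arrays of an animal and black bars are means of 4 animals; all 8 muscle arrays lie above 0 for both genes.

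The deposited ratios of the tissues were also set against each other. Every tissue came from the same 4 knockout animals, but the main fit did not use this pairing. The 4 ratios of a tissue share the wild-type pool as reference. An error in the pool would move all 4 together, and the SE and adjusted p below leave it out. The comparison used 1 limma fit of all 16 animal and tissue values for 16185 genes, 59 of them matrix genes. For Thbs1 the mean log2 ratio was 1.02 in muscle and −0.34 in brain, a difference of 1.35 ± 0.21 (SE, adjusted p = 0.0183 by limma), or 2.56-fold. Against pancreas (−0.17) the Thbs1 difference was 1.19 ± 0.21 (SE, adjusted p = 0.0210 by limma), or 2.28-fold. Against kidney (0.01) it was 1.003 ± 0.21 (SE) and did not pass (adjusted p = 0.137 by limma). Lamb1 averaged 0.76 in muscle and −0.22 in brain, a difference of 0.98 ± 0.21 (SE, adjusted p = 0.0479 by limma), or 1.97-fold. Its differences from pancreas, 0.84 ± 0.21, and from kidney, 0.76 ± 0.21 (SE), did not pass, with adjusted p of 0.0783 and 0.231 by limma.

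The calls read against the whole array as follows. Muscle minus brain called 2 of 59 matrix genes, against 0.711% of all genes, and muscle minus pancreas called 1, against 0.933%. Muscle minus kidney called 0 (0.0185% of all genes), and pancreas minus brain, pancreas minus kidney and kidney minus brain called 0, where 0% of all genes were called. By the F test over all 4 tissues 1 matrix gene was called (Thbs1, adjusted p = 0.0384 by limma), against 0.297% of all genes. At an unadjusted p under 0.05, limma gave 7 matrix genes for muscle minus brain (9.6% of all genes), 3 for muscle minus kidney (6.4%) and 10 for muscle minus pancreas (13.2%). The same count was 3 for pancreas minus brain (8.33% of all genes), 2 for pancreas minus kidney (5.74%), 1 for kidney minus brain (2.94%) and 6 for the F test (9.13%).

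The 3 calls depended on the fit. Spread differed between tissues, from a median SD over all genes of 0.099 among kidneys and 0.13 among brains to 0.17 among muscles and 0.21 among pancreases, and the fit shared 1 estimate. With only the 2 tissues compared, the adjusted p by limma was 0.181 and 0.418 for Thbs1 against brain and pancreas and 0.219 for Lamb1. With weights for the spread of each tissue, Thbs1 against brain passed, while Lamb1 against brain (adjusted p = 0.0521) and Thbs1 against pancreas (adjusted p = 0.204 by limma) did not. With the animal as a block, Lamb1 did not pass (adjusted p = 0.0846 by limma). Leaving out animal 2, 3 or 4 ended all 3 calls, and without animal 2, which had the highest muscle values, Thbs1 differed by 1.10 from brain and 0.95 from pancreas and Lamb1 by 0.69 from brain. With the sign of the Cy3 arrays turned, the muscle means came to 0.02 for Thbs1 and 0.06 for Lamb1, and muscle minus brain to −0.035 and −0.048. The 1 fit of all tissues also gave muscle alone an adjusted p of 0.00323 for Thbs1 and 0.0154 for Lamb1, among 286 of 16610 genes it called in muscle, where the fit within muscle gave 0.395 and 0.435 (limma).

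**Figure D3:**
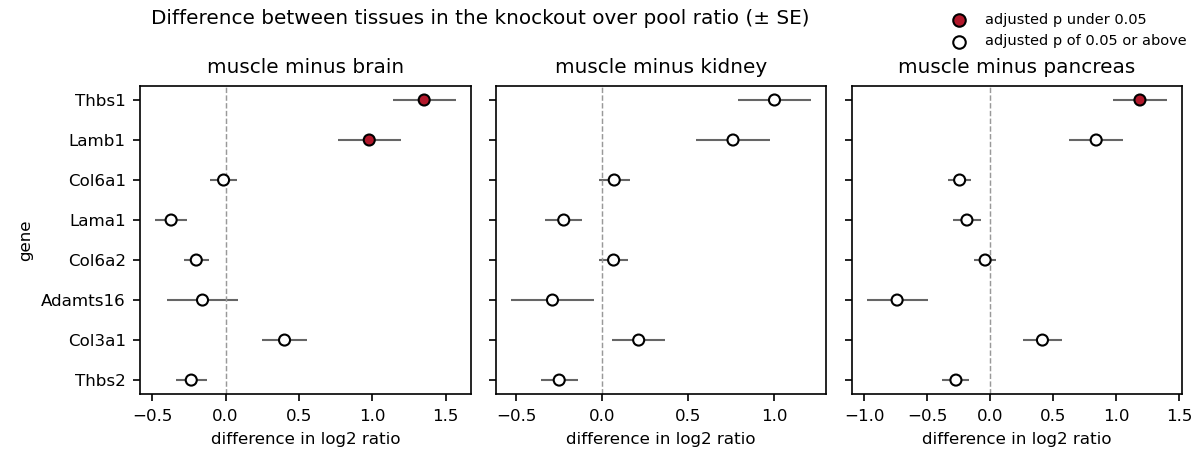
Difference in mean log2 ratio (x axis) between muscle and brain, kidney or pancreas for the 8 matrix genes of smallest F test p (rows), with bars for ± SE from limma. Filled points have an adjusted p under 0.05: Thbs1 against brain (1.35) and pancreas (1.19), and Lamb1 against brain (0.98).

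Thbs1 and Lamb1 followed each other across animals and tissues. Over the 16 values their log2 ratios had a Pearson r of 0.96 and a Spearman rho of 0.95, and after subtraction of each tissue's mean r was 0.89. The points share animals and arrays, and the muscle values are set apart from the rest, so r is a description. Each gene has 1 probe. Both probes fall in the last 10% of the probe numbering, where 7.02% of probes exceeded 0.5 in muscle, against 3.18% of the rest, and where 23 of the 100 matrix probes lie.

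The pair shared its pattern with a large set of genes. At r above 0.9 over the same 16 values, 130 genes resembled Thbs1 and 133 resembled Lamb1, of 14753 others. Of the 52 matrix genes with all 16 values, the next highest count was 14, for Col5a2, and then 8, for Mmp17. Of the 130 genes like Thbs1, 1 was a matrix gene (Lamb1), 78 had a symbol and 36.3% of their probes lay in the last 10% of the numbering. Its closest named genes were Tgif2, a repressor of TGF-beta responses (r = 0.99), Gli3, a transcription factor of hedgehog signalling (r = 0.99), and Slc6a19, an amino acid transporter (r = 0.99). For Lamb1 they were Septin1 (r = 0.99), Gpc5, a heparan sulphate proteoglycan (r = 0.99), and Wnt11, a secreted signalling protein (r = 0.98). Of the other 114 genes called between muscle and brain, 82 were among the 130, and of the other 150 called between muscle and pancreas, 55 were. The likeness and the calls rest on the same 16 values, so this overlap is a description and not separate evidence. Whether probe position plays a part in these values was not tested.

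**Figure D4:**
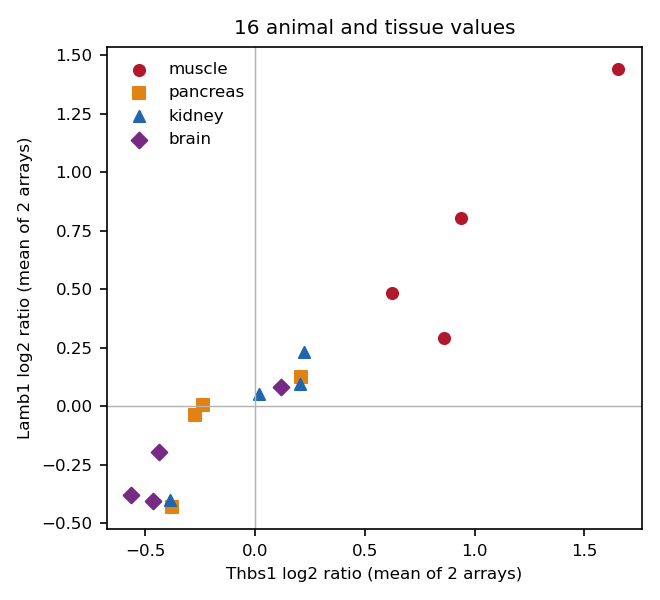
Log2 ratio of Lamb1 (y axis) against Thbs1 (x axis) in each of 16 animal and tissue values, each a mean of 2 arrays, with a colour and shape per tissue. The 4 muscle points lie at the upper right (Thbs1 0.62 to 1.65), apart from the other 12; r is 0.96 over all points.

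For Lamb1 the bases upstream of its start are shown because it is the called laminin; RefSeq's promoter table (GRCm38.p6) has an entry for 42 of the 62 genes, and Thbs1 is not among them. Capitals mark a CCAAT box (CCAAT) and GC boxes (GGGCGG), searched on both strands of the 250 bases before the start, here at chr12:31265043-31265292 on the plus strand.
Lamb1: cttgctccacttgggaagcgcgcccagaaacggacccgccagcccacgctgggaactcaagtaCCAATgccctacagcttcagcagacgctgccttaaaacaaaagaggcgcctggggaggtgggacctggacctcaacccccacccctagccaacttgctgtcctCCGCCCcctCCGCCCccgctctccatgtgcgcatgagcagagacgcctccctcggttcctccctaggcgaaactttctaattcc
The window holds 2 GC boxes and 1 CCAAT box, and neither a TATA box (TATAAA) nor an AP-1 motif (TGANTCA). GC boxes were found upstream of 26 of the 42 matrix genes (61.9%) and of 35.4% of 27025 genes in the table. CCAAT boxes were found in 38.1% of the matrix genes and 37.5% of all, TATA boxes in 21.4% and 14.3%, and AP-1 motifs in 11.9% and 7.82%. The matches describe letters in these windows only.

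The other laminin and thrombospondin genes did not pass any test. Lamb3, a laminin beta chain of epithelial basement membranes, had muscle values of 0.16, 0.82 and 0.55 in the 3 animals measured, a mean of 0.51 ± 0.14 (SE), with 1.24 in the Cy5 and −0.22 in the Cy3 orientation. The Lamb3 probe is numbered next to that of Lamb1, and so also lies in the last 10% of the numbering. Lama1, a laminin alpha chain of early basement membranes, had −0.17, −0.12, −0.39 and −0.16 in muscle, against 0.25, 0.09, 0.16 and 0.13 in brain. The Lama1 difference of −0.37 ± 0.11 (SE) had an adjusted p of 0.178 by limma. These Lama1 values did not overlap, but neither did those of Adamtsl4 and Timp3, at smaller differences of −0.096 and −0.13. How many of all genes lacked overlap was not counted. In muscle the Lama1 sign also changed with the dye (0.19 in Cy5, −0.61 in Cy3). Lamc3, a laminin gamma chain, was above 0 in all 4 brains (0.10, 0.32, 0.16 and 0.15; mean 0.18 ± 0.06 SE) and below 0 in all 4 pancreases (mean −0.20 ± 0.09 SE). Lama4, a laminin alpha chain of blood vessels, averaged 0.07 ± 0.05 in brain (SE, n = 4). Thbs2, a thrombospondin that also restrains angiogenesis, had −0.03, −0.19, −0.53 and −0.12 in muscle, opposite in sign to Thbs1. Its muscle mean of −0.21 ± 0.10 lay below pancreas (0.06), kidney (0.04) and brain (0.02) without passing, with adjusted p from 0.277 to 0.715 by limma. Thbs3 and Thbs4 had muscle means of 0.03 ± 0.09 and 0.26 ± 0.22 (SE).

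Fibrillar collagens were near 0 in most tissues. Col1a1 and Col1a2 encode the chains of type I collagen. Col1a1 had 0.04, −0.10, −0.31 and −0.35 in muscle, a mean of −0.18 ± 0.09, while Col1a2, on 4 probes, averaged 0.00 ± 0.06 in the same muscles (SE, n = 4). In pancreas, kidney and brain Col1a1 averaged 0.06 ± 0.08, −0.02 ± 0.04 and −0.0026 ± 0.05, and Col1a2 −0.04 ± 0.09, −0.01 ± 0.04 and −0.06 ± 0.07 (SE). Col3a1, the chain of type III collagen, had −0.23, −0.41, −0.53 and −0.01 in pancreas, a mean of −0.30 ± 0.11 (SE). That mean combined −0.68 in the Cy5 and 0.09 in the Cy3 orientation. Col3a1 was also low in brain (−0.28 ± 0.13 SE) and averaged 0.12 ± 0.08 in muscle, and muscle minus brain (0.40 ± 0.15 SE) had an adjusted p of 0.392 by limma. By family, 6 of 10 fibrillar collagens lay below 0 for muscle, 3 for pancreas, 8 for kidney and 5 for brain. Of all genes tested, 41.5% lay above 0 for muscle, 50.3% for pancreas, 51.5% for kidney and 53.5% for brain. Col11a1, a minor fibrillar chain, was above 0 in all 4 brains (mean 0.09 ± 0.05 SE), and Col27a1 in all 4 kidneys (0.13, 0.05, 0.26 and 0.07). The 3 probes of Col5a1, another minor chain, ran from −0.15 to 0.45 in brain and so disagreed in sign by over 0.5.

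The basement membrane collagens Col4a1 and Col4a2, whose genes lie head to head with starts 21 bases apart in RefSeq, stayed within 0.1 of 0 in all tissues. Col4a1, on 4 probes, averaged 0.00 ± 0.06 for muscle, −0.03 ± 0.09 for pancreas, 0.03 ± 0.04 for kidney and 0.05 ± 0.05 for brain (SE, n = 4). Col4a2 averaged −0.09 ± 0.06, −0.03 ± 0.08, 0.05 ± 0.05 and 0.06 ± 0.05 in the same tissues (SE, n = 4). Over 16 values the pair had r of 0.41. Of the neighbouring matrix genes, Col3a1 and Col5a2 had r of 0.54, Col6a1 and Col6a2 0.15, Adamts1 and Adamts5 −0.13, and Mmp12 and Mmp13 −0.21 over 10 values.

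Collagen VI, which forms beaded filaments around cells, was low in kidney by its Col6a2 chain. Col6a2 had −0.19, −0.16, −0.19 and −0.14 in the 4 kidneys, a mean of −0.17 ± 0.03 (SD, n = 4), and all 8 kidney arrays lay below 0. Its adjusted p in kidney was 0.458 by limma. In muscle, pancreas and brain Col6a2 averaged −0.10 ± 0.08, −0.06 ± 0.08 and 0.10 ± 0.06 (SE), and kidney minus brain was −0.27 ± 0.09 (SE, adjusted p = 1 by limma) without overlap between these tissues. The share of all genes without overlap between kidney and brain was not counted. Col6a1 lies beside Col6a2 on chromosome 10. Its values were 0.31, 0.07, 0.36 and 0.04 in pancreas, against −0.25, −0.08, −0.10 and −0.04 in kidney. The Col6a1 difference, pancreas minus kidney, was 0.31 ± 0.09 (SE, adjusted p = 0.524 by limma), and its pancreas mean combined 0.71 in the Cy5 and −0.32 in the Cy3 orientation. Col23a1, a membrane-bound collagen, was below 0 in all 4 kidneys (mean −0.13 ± 0.05 SE). Of the 12 other collagens, 10 lay below 0 for muscle, 7 for pancreas, 8 for kidney and 6 for brain, and 41.5% of all genes in muscle lay above 0.

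The bases upstream of the Col6a2 start are shown because this gene was below 0 on every kidney array. Capitals mark GC boxes in the 250 bases before 1 of its 2 RefSeq starts, at chr10:76623405-76623654 on the minus strand of GRCm38.p6.
Col6a2: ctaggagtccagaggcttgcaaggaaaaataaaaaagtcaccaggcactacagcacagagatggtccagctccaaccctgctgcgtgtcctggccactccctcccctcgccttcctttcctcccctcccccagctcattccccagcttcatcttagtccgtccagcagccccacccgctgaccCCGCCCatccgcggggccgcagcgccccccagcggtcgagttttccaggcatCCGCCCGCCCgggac
The window holds 3 GC boxes, of which the last pair overlap, and none of the other 3 motifs.

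Of the linking glycoproteins, fibronectin (Fn1, 5 probes) lay within 0.1 of 0 in all tissues, at −0.0027 ± 0.06 for muscle, −0.08 ± 0.09 for pancreas, −0.00035 ± 0.04 for kidney and 0.0020 ± 0.06 for brain (SE, n = 4). Periostin (Postn), a matricellular protein of connective tissue under load or repair, had −0.64, −0.02, −0.76 and −0.55 in muscle, a mean of −0.49 ± 0.13 (SE, adjusted p = 0.466 by limma). The Postn mean came from the Cy3 arrays (−1.03), while the Cy5 arrays gave 0.05. In pancreas Postn was 0.94 in 1 animal and between −0.28 and −0.20 in the other 3. Its means in kidney and brain were −0.03 ± 0.06 and −0.14 ± 0.05 (SE).

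Among the proteases, Mmp17, a metalloproteinase anchored to the cell membrane, was below 0 on all 8 kidney arrays. The 4 kidneys had −0.28, −0.08, −0.23 and −0.27, a mean of −0.21 ± 0.05 (SE, adjusted p = 0.451 by limma), against 0.05 in muscle, −0.01 in pancreas and −0.03 in brain. With the Cy3 arrays turned the kidney means of Mmp17 and Col6a2 came to 0.02 and −0.04. Adamts5, an aggrecan-cleaving enzyme, had 0.26, 0.14, 0.21 and 0.13 in kidney (mean 0.18 ± 0.04 SE, adjusted p = 0.468 by limma) and was above 0 on 7 of 8 arrays. In muscle it had −0.09, −0.06, −0.54 and −0.24, a mean of −0.24 ± 0.10 (SE). Mmp8, a neutrophil collagenase, was above 0 in all 4 kidneys, with a mean of 0.14 ± 0.05 (SE).

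In brain, the gelatinase Mmp9 had 0.03, 0.24, 0.10 and 0.14 (mean 0.13 ± 0.05 SE) and the stromelysin Mmp3 had −0.11, −0.08, −0.14 and −0.16 (mean −0.12 ± 0.05 SE). Each had the same sign in all 4 brains, and neither passed (adjusted p = 0.775 by limma). The 2 probes of Mmp9 differed in brain, with means of 0.24 and 0.01. Mmp14, a membrane-bound activator of Mmp2, averaged −0.03 ± 0.05 in brain (SE). Mmp2, the other gelatinase, averaged −0.46 ± 0.26 in muscle, where animal 2 had −1.50 and the others lay from −0.34 to 0.01. Mmp2 averaged 0.00 ± 0.12 in pancreas and 0.05 ± 0.11 in kidney (SE), and in brain only 2 animals had a value. Mmp12, a macrophage elastase, had values in at most 2 animals outside kidney. Adamts16 had 0.55, 1.05, 0.50 and −0.20 in pancreas, a mean of 0.47 ± 0.20 (SE), with 1.35 in the Cy5 and −0.40 in the Cy3 orientation. Its muscle minus pancreas difference was −0.74 ± 0.24 (SE, adjusted p = 0.187 by limma). Of the 8 ADAMTS proteases, 5 lay below 0 for muscle, 4 for pancreas, 1 for kidney and 7 for brain. The shares of all genes above 0 were 41.5%, 50.3%, 51.5% and 53.5% in the same order.

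The inhibitors had means near the pool, but the animals spread widely in pancreas. There Timp1 ran from −0.30 to 0.55 and Timp3 from −0.41 to 0.07. Timp1 averaged −0.02 ± 0.09 for muscle, 0.12 ± 0.16 for pancreas, 0.0041 ± 0.04 for kidney and −0.01 ± 0.05 for brain (SE, n = 4). Of the 4 TIMPs, all 4 lay above 0 in kidney, by 0.0041 to 0.060, against 51.5% of all genes. In brain 1 lay above 0, against 53.5% of all genes. Timp4 was above 0 in all 4 kidneys (mean 0.04 ± 0.04 SE) and Timp3 in all 4 brains (mean 0.06 ± 0.05 SE). In pancreas the Timp3 probes ran from −0.32 to 0.24, and the Lamc1 probes from −0.02 to 0.85, which disagree in sign by over 0.5. Among matrix genes with several probes, the probes had opposite signs for 17 of 25 for muscle, 14 of 24 for pancreas, 17 of 25 for kidney and 10 of 25 for brain. The share over all genes with several probes was not counted.

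**Figure D5:**
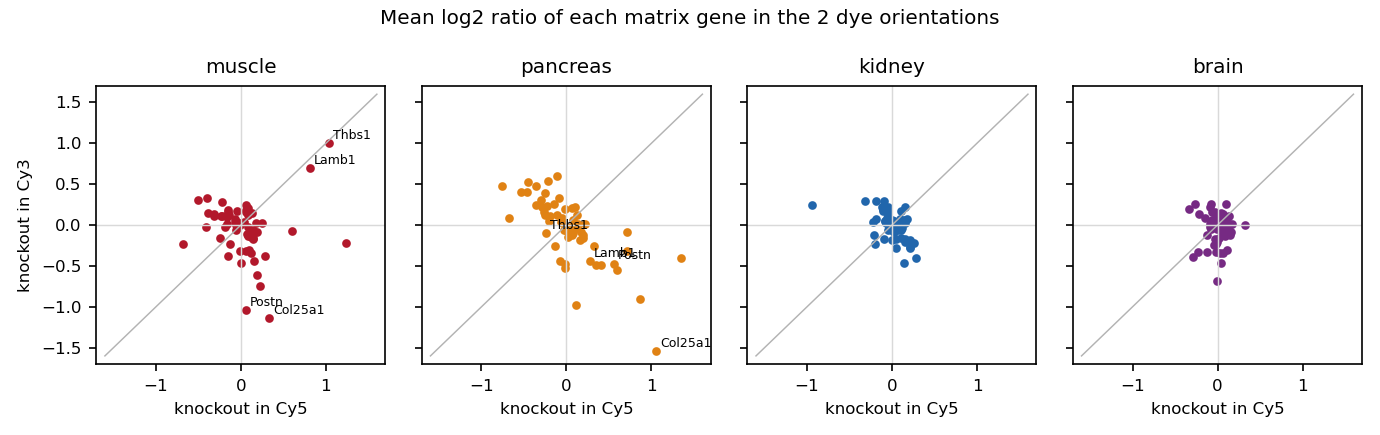
Mean log2 ratio of each tested matrix gene on arrays with the knockout in Cy5 (x axis) and in Cy3 (y axis), in muscle, pancreas, kidney and brain. The line marks equal values. Thbs1 and Lamb1 in muscle lie near it, while Postn in muscle (0.05, −1.03) and Col25a1 in pancreas (1.05, −1.54) lie far below it.

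The mean ratio had opposite signs in the 2 dye orientations for 38 of 61 matrix genes in muscle (65.6% of all genes), 48 of 60 in pancreas (78.2%), 41 of 62 in kidney (67.9%) and 31 of 60 in brain (63.1%). Col25a1, a collagen of neurons, averaged 1.05 on the Cy5 arrays and −1.54 on the Cy3 arrays of the 3 pancreases with values. With the sign of the Cy3 arrays turned, limma called 11 of 60 matrix genes in pancreas, against 18.9% of all genes, and 2 of 61 in muscle, against 5.29%. Those 11 were Adamts1, Adamts16, Col11a2, Col14a1, Col16a1, Col25a1, Col2a1, Col4a2, Col6a1, Lamb1 and Postn, and the 2 in muscle were Col11a2 and Col4a2. Whether the deposited or the turned signs hold was not tested. Of the values set to missing for their size, all 920 positive ones had the knockout in Cy5 and all 924 negative ones in Cy3. With the deposited signs, the channel of lower signal in these values was Cy3 each time. With the turned signs, it was the wild-type pool each time, in both dyes.

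Genes that work with the matrix were read from separate lists, in which limma called no gene against the pool in any tissue at an adjusted p under 0.05. Of 132 list genes tested between tissues, 3 were called for muscle minus brain, where 0.711% of all genes were called, and 1 of these also for muscle minus pancreas, against 0.933%. P3h2, a prolyl hydroxylase of collagen chains, averaged 0.82 ± 0.16 in muscle (SE) and differed by 0.83 ± 0.16 from brain and 0.79 ± 0.16 from pancreas (SE, adjusted p = 0.0257 and 0.0349 by limma). Smad6, an inhibitor in the TGF-beta family's signalling, averaged 0.54 ± 0.11 in muscle and differed from brain by 0.70 ± 0.15 (SE, adjusted p = 0.0401 by limma). Tek, the angiopoietin receptor of endothelial cells, averaged 0.60 ± 0.13 in muscle and differed from brain by 0.77 ± 0.14 (SE, adjusted p = 0.0244 by limma). With the animal as a block, the 3 calls against brain were lost (adjusted p of 0.0550 for P3h2, 0.0846 for Smad6 and 0.0627 for Tek by limma), and P3h2 against pancreas was kept (adjusted p = 0.0489 by limma). None of these 4 differences passed with only the 2 tissues compared, on Cy5 arrays alone, or without animal 2, 3 or 4. Of 13 alternative settings, P3h2 passed in 6 against brain and in 5 against pancreas. Tek passed in 6 of the 13 and Smad6 in 3. With the Cy3 arrays turned, muscle minus brain came to −0.32 for P3h2, 0.0067 for Smad6 and −0.19 for Tek, and P3h2 against pancreas to −0.081. At an unadjusted p under 0.05, muscle gave 4 of 20 genes of collagen folding and cross-linking, 3 of 15 integrins, 3 of 20 genes of TGF-beta signalling, 1 of 19 other glycoproteins and 1 of 17 other proteases and inhibitors, against 7.83% of all genes in muscle. In pancreas 2 of 20 folding genes, 1 of 19 glycoproteins and 1 of 17 proteases did so, against 3.42% of all genes. Kidney gave 1 of 20 folding genes, 1 of 19 glycoproteins and 2 of 15 integrins, against 9.48%, and brain 1 of each of these 3 lists, against 4.5%. The remaining lists of genes that work with the matrix gave 0 in these 3 tissues. Of the cell type marker lists, brain gave 1 of 10 endothelial and 2 of 7 tendon and cartilage markers, against 4.5% of all genes. Pancreas gave 1 of 5 adipocyte and 1 of 7 tendon and cartilage markers, against 3.42%. Of the matrix lists outside muscle, P4ha2, which hydroxylates collagen prolines, averaged 0.51 ± 0.18 in pancreas (SE). P3h4, of the same list, averaged −0.27 ± 0.09, and Nid2, a basement membrane linker, −0.56 ± 0.15 in pancreas (SE). In brain Serpinh1, the collagen chaperone, averaged 0.18 ± 0.06 and Nid2 0.18 ± 0.07, and in kidney Fbln5, an elastic fibre protein, averaged 0.11 ± 0.04 (SE).

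Of 15 integrin receptor genes, 7 lay above 0 and 8 below in muscle, with a median of −0.003. Itgav averaged 0.94 ± 0.24 and Itga5, the fibronectin receptor's alpha chain, 0.80 ± 0.19 in muscle (SE). Itgb2, the other integrin with an unadjusted p under 0.05 by limma, averaged −0.26 ± 0.09 there (SE). Itga5 and Smad6 were among the genes like both Thbs1 and Lamb1 at r above 0.9, Tek among those like Thbs1, and Pcolce, which speeds procollagen processing, among those like Lamb1. In muscle the collagen hydroxylase Plod1 averaged −0.41 ± 0.12 and the TGF-beta inhibitor Skil 0.31 ± 0.08 (SE).

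Cell type markers in muscle give the setting of these values. Of 10 fibroblast markers 8 lay above 0 in muscle and 2 below, with means per animal from 0.016 to 0.095. Pi16 averaged 0.43 ± 0.17, while Cd34 averaged −0.45 ± 0.20 (SE). Of 10 endothelial markers 3 lay above 0, with means per animal from −0.040 to 0.057, Tek and Cdh5 (0.42 ± 0.10 SE) among them. Of 6 macrophage markers 1 lay above 0, with means per animal from −0.19 to −0.11, and Ctss, a lysosomal protease, averaged −0.53 ± 0.08 (SE). Smooth muscle and pericyte markers (3 of 7 above 0), adipocyte markers (3 of 5) and tendon and cartilage markers (3 of 7) had means per animal between −0.097 and 0.062 in muscle. The part of these cell types in the matrix values was not tested, and ratios do not show which markers were at background.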

How the data were processed

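The arrays took cDNA made from 20 µg of total RNA with indirect dye coupling, per the labels' protocols. The authors deposited a log2 ratio for each probe on each array; its base was inferred. For scanner, background correction and normalisation, the step is not given in the sources used here. Values beyond 8 in size (1844 of 655162, with 0 between 8 and 15) were taken as missing; all 920 positive values were on Cy5 and all 924 negative ones on Cy3 arrays of the knockout, and 4 belonged to matrix genes. A probe annotation gave 12771 probes 1 symbol and 8023 none; unnamed probes stayed units of their own. The files name no genome build.

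Probes of a symbol and then the 2 arrays of an animal were averaged, with both arrays required. limma 3.58.1 (R 4.3.3) tested each tissue's mean against 0 with at least 3 animals, and all 16 values in 1 fit between tissues, with 12 residual degrees of freedom, two-sided, adjusted over all genes with a threshold of 0.05. SE is limma's after moderation; a fold is 2 to the log2 difference. The scripts were tested on simulated data; with spreads as unequal as in these tissues, the shared fit between tissues, weighted or not, called more unchanged genes than its threshold allows, so its calls are less certain than their adjusted p. The number of animals and the use of 1 wild-type pool limit the precision. Animals pair the tissues, per the labels; deviations from tissue means correlated at r of −0.02 to 0.05. Alternatives were floor values kept, 1 array enough, centring, single probes, dye orientations alone, turned signs, an 8-array dye fit, animals left out or as a block, other tissue choices and weights.

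Members and lists were chosen with earlier results of these data known. Named genes were every called member, up to 8 per tissue by p whose sign held across animals and both dyes, up to 8 by F test, 12 canonical genes and members with discordant probes. List genes were taken from the 2 of smallest p of each list and tissue, of which only a part is named, and from those like Thbs1 or Lamb1. Lamb3, Thbs3, Thbs4, Mmp12, Col25a1, Cd34 and Itgb2 were added after their values were seen. Table columns of no sample numbered 0.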

Additional observations from a re-analysis of the deposited data

Results flagged for a closer look

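Of 64 tissue groups of named matrix genes examined for a sample far from the others, 2 were picked out, where chance picks about 1 in 20. Postn in pancreas was 0.94 in animal 1, against −0.28 to −0.20 in the other 3. Col1a2 in pancreas was 0.12 in animal 4, against −0.11 to −0.08 in the other 3.

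By limma's test of the difference in the shared fit, Thbs1 differed by 1.35 between muscle and brain and by 1.19 between muscle and pancreas. Lamb1 differed by 0.98 between muscle and brain. None of these calls held with only the 2 tissues compared, or without animal 2, 3 or 4. With tissue weights, only Thbs1 against brain passed.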

How the results depend on the processing

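The 2 matrix genes called for muscle minus brain fell to 1 with floor values kept (Lamb1 adjusted p = 0.0660, difference 0.98), with 1 array enough (adjusted p = 0.0653), with the replicate block, where the animal pairs the tissues (Lamb1 0.98, adjusted p = 0.0846), with tissue weights (Lamb1 0.98, adjusted p = 0.0521) and on Cy3 arrays alone (Lamb1 1.03), all by limma. They fell to 0 on Cy5 arrays alone (Thbs1 1.32, Lamb1 0.93), with only the 2 tissues (Thbs1 1.35, Lamb1 0.98) and with the Cy3 arrays turned (Thbs1 −0.035, Lamb1 −0.048). Among matrix genes the replicate block changed no other call; of the list genes, it ended those of P3h2, Smad6 and Tek for muscle minus brain (adjusted p of 0.0550, 0.0846 and 0.0627 by limma). Thbs1 for muscle minus pancreas was lost with the Cy3 arrays turned (0.088), on Cy3 arrays alone (1.10), with only the 2 tissues and with weights (1.19 in both), which left 0 genes there. Without 1 replicate at a time, 0 to 2 genes were called for muscle minus brain and 0 to 1 for muscle minus pancreas. Across these, Thbs1 ranged from 1.10 to 1.64 against brain and 0.95 to 1.34 against pancreas, and Lamb1 from 0.69 to 1.17 against brain. Turned arrays called 2 matrix genes in muscle (5.29% of all genes), 11 in pancreas (18.9%), 5 for pancreas minus brain (10%) and 1 for pancreas minus kidney (2.41%). Cy5 arrays alone called 2 (3.6% of all genes) and 1 (0.632%) for these pairs. Within muscle the 8-array fit called 1 (Thbs1), of 28 genes in all, and the 1 fit of all tissues 2, of 286 in all. The group median moved in brain to 0.023 with turned arrays, 0.0074 on Cy5 arrays and −0.018 to 0.012 without 1 replicate, and in muscle to 0.043 on Cy5 and 0.0048 on Cy3 arrays. Of 64 named values, 34 changed sign with turned arrays, 16 on Cy5 arrays, 14 on Cy3 arrays, 2 with centring and 3 to 12 without 1 replicate. Of 400 family medians over these settings 50 moved by more than 1 SD between animals. The cause was not tested, beyond fewer samples where replicates or tissues were left out.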
